A study of Mus musculus with 96 samples.

Results

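A set of 10 genes known for their response to metals, glucose, glucocorticoids, or fasting were followed across 16 tissues of *Scx*-/- mice and wild-type mice. They were *Mt1*, *Mt2*, *Txnip*, *Fkbp5*, *Tsc22d3*, *Sgk1*, *Zbtb16*, *Cdkn1a*, *Pdk4*, and *Angptl4*, which are 10 of the 41575 gene rows of the count table, and they were selected on the difference between *Scx*-/- and wild-type libraries of these same data. For this reason the values of that difference are a description of the members. The mice were 3 weeks old. Their libraries came from digestive organs (stomach, intestine, rectum, liver), from the skeleton and its muscle (bone, cartilage, muscle), from brain (cortex, hippocampus), and from heart, lung, kidney, bladder, spleen, and samples labelled adipose and vascular, with 3 libraries per tissue and genotype and 96 in all. *Scx* encodes scleraxis, a transcription factor of tendons and ligaments, and *Scx*-/- mice carry no working copy of it. Wild-type mice served as the control in every tissue. The libraries were bulk RNA sequencing of whole pieces of tissue, enriched for the 3′ ends of transcripts, and they were barcoded and pooled before sequencing. Because the samples are bulk tissue, fewer cells of a type and less RNA per cell cannot be told apart.

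Metallothioneins are small cysteine-rich proteins that bind zinc and copper, and their genes are switched on by metals through the factor MTF1 and by glucocorticoids. *Txnip* encodes an arrestin-like protein that binds thioredoxin and holds back glucose uptake, and glucose raises its transcription through carbohydrate response elements. Glucocorticoids act through a nuclear receptor that turns on *Fkbp5*, *Tsc22d3*, *Sgk1*, and *Zbtb16* in many tissues, while *Pdk4* and *Angptl4* rise in fasting and *Cdkn1a* is a target of p53.

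Depth ranged from 11244 to 1658192 counts per library, with a median of 251640 counts, and 16 of the 96 libraries held fewer than 100000 counts. Levels are given as CPM, the count of a gene scaled to the total count of its library. *Scx* itself had 80 counts in 12 of 48 wild-type libraries and 9 counts in 1 of 48 *Scx*-/- libraries. That *Scx*-/- library was of cartilage and held *Scx* at 37.2 CPM, against at most 28.2 CPM in wild-type cartilage. The marker genes of a tissue were highest in the libraries of that tissue for 13 of the 16 tissues. Adipose markers ranked 12th in the adipose libraries, with *Lep*, the leptin gene, at 0 there, vascular markers ranked 2nd in the vascular libraries, and hippocampus markers ranked 2nd, behind cortex. Pancreatic acinar markers took 38.7% to 51.0% of counts in the wild-type adipose libraries and 45% to 49.9% in the *Scx*-/- ones, and brown fat markers 0.714% to 1.35% and 0.352% to 0.617% in the vascular libraries. Their part in the results of these libraries was not tested, and adipose and vascular are used below as label names only.

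Transcripts of the sex chromosomes set the libraries apart by replicate number. *Xist*, the RNA that coats the inactive X chromosome of females, was at 100 CPM or more in 15 of 16 tissues of wild-type replicate 1 and in 16 of 16 of wild-type replicate 3, but in 0 of 16 of wild-type replicate 2. In the *Scx*-/- libraries it reached 100 CPM in 15 of 16 tissues of replicate 1, in 2 of 16 of replicate 2, and in 0 of 16 of replicate 3. *Ddx3y*, a gene of the Y chromosome, had median levels of 78.4, 83.7, and 93.7 CPM in wild-type replicate 2, *Scx*-/- replicate 2, and *Scx*-/- replicate 3, and a median of 0 in the other three numbers. *Xist* thus moved with genotype, at 31 of 48 wild-type and 17 of 48 *Scx*-/- libraries. The labels give neither the sex of the mice nor which libraries came from the same mouse.

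**Figure D1:**
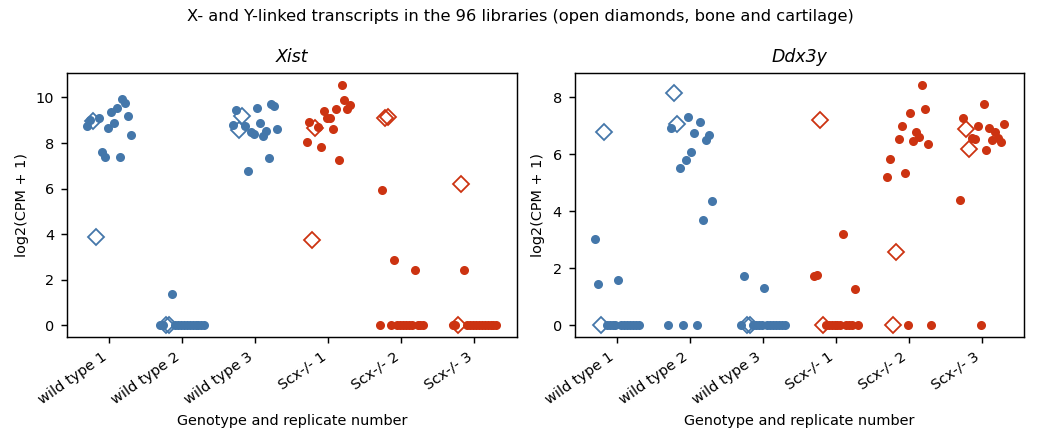
Level of *Xist* and *Ddx3y* as log2(CPM + 1) in each of the 96 libraries, by genotype and replicate number, with 16 tissues per column and bone and cartilage as open diamonds. *Xist* is high in wild type 1 and 3 and in *Scx*-/- 1, and the open diamonds hold most of the exceptions.

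Bone and cartilage held libraries that went against this order. In bone, *Xist* was 12.5 CPM in *Scx*-/- replicate 1 and 547 CPM in *Scx*-/- replicate 2. In cartilage it was 13.8 CPM in wild-type replicate 1 and 565 CPM in *Scx*-/- replicate 2. Mean differences over the tissues are given with and without bone and cartilage, and with the level of *Xist* as a covariate.

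*Fkbp5*, which encodes a chaperone partner of the glucocorticoid receptor, and *Angptl4*, which encodes an inhibitor of lipoprotein lipase, were listed at 0 in all 96 libraries, so no level or fold is given for them. Both lie on chromosome 17 in the build mm10 (GRCm38). *Fkbp5* spans chr17:28399094-28517527 on the minus strand and *Angptl4* chr17:33773750-33781830 on the minus strand. Of the 45 other protein-coding genes within 1 Mb of *Fkbp5*, 30 (66.7%) were at 0 in all libraries, as were 55 of 80 (68.8%) around *Angptl4*, against 4410 of 20561 (21.45%) of all protein-coding genes. The genes at 0 included *Srpk1*, *Mapk14*, *Csnk2b*, and *Brd2*, which most cells use, and the cause of these zeros was not tested. *Cdkn1a* lies on the same chromosome, where 19 of 39 coding neighbors (48.7%) were at 0, yet it had counts in 40 of 48 wild-type and 45 of 48 *Scx*-/- libraries. The other 8 members had counts in every tissue of at least 1 genotype.

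The metallothionein genes lie side by side on chromosome 8, with *Mt2* at chr8:94172664-94173568 and *Mt1* at chr8:94179082-94180327, both on the plus strand and 5513 bases apart. Their annotated transcripts share no stretch longer than 20 bases without a mismatch. MTF1 binds metal response elements, and the promoter sequences are shown because the pair moved together below. They are RefSeq promoters in GRCm38, from 250 bases before to 50 bases after the annotated start, and capitals mark the core of the metal response element, TGCACNC or TGCGCNC, on either strand.
Mt1, chr8:94178839-94179138, plus strand: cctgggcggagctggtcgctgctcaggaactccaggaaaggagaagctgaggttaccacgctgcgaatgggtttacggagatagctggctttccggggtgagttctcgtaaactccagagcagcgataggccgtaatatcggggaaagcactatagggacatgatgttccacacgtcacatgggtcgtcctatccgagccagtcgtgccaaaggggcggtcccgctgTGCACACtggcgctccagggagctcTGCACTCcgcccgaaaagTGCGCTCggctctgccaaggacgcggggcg
Mt2, chr8:94172368-94172667, plus strand: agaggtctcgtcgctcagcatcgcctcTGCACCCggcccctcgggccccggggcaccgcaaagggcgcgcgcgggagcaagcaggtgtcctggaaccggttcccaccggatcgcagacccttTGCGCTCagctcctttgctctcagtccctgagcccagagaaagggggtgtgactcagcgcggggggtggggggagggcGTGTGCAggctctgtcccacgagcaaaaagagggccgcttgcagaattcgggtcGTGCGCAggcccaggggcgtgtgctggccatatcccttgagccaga
The *Mt1* window held 3 matches and the *Mt2* window 4 matches. Of 32851 promoters of 300 bases, 25.7% held at least 1 match, 7.11% at least 2, and 0.517% at least 4. The core of a glucocorticoid response element, ACANNNTGT, was found in 6.85% of all promoters, and the *Mt1* window held 1 match and the *Mt2* window 0. A match is a string of letters and says nothing about binding in these tissues.

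*Mt2* and *Mt1* were higher in *Scx*-/- libraries in most tissues. The log2 fold change of *Mt2* was above 0 in 14 of 16 tissues, with a median of 1.11, and that of *Mt1* in 15 of 16, with a median of 0.72, where the sign of *Mt2* in spleen turned below 0 with library totals. The median over all genes tested was 0.08 when taken as the median of the 16 tissues. At the thresholds of the study, an unadjusted p below 0.05 and a change of more than 2-fold in edgeR's quasi-likelihood test, *Mt2* passed in 7 tissues and *Mt1* in 4, always with the higher level in *Scx*-/- libraries. Over the 8 members with counts, 27 of 128 member and tissue pairs passed, all 27 higher in *Scx*-/-, where the same test passed 1.85% of all gene and tissue pairs as higher and 1.85% as lower. Since the members were chosen on this contrast, nothing is read from that excess. Without the adipose and vascular tissues 24 pairs passed, and with *Xist* as a covariate 21. Without *Scx*-/- replicate 3 the number was 15.

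The difference was widest in rectum. *Mt2* was 198, 216, and 80.4 CPM in the wild-type rectum libraries and 889, 1192, and 2506 CPM in the *Scx*-/- ones, a log2 fold change of 3.31 ± 0.60 (SE, n = 3 per genotype). *Mt1* was 409, 421, and 301 CPM against 559, 2032, and 3605 CPM, a log2 fold change of 2.63 ± 0.53. All 3 *Scx*-/- libraries lay above all 3 wild-type libraries for both genes. In rectum 5.0% of all genes passed the thresholds of the study. Epidermal marker genes moved with this difference, since the list of 5 summed to 0.564% to 1.04% of counts in the *Scx*-/- rectum libraries and to no more than 0.00402% in the wild-type ones. Muscle markers (0.615% to 0.898% against 0.0211% to 0.386%), bladder markers (0.0455% to 0.512% against 0.0023% to 0.0221%, with *Upk2* at 0), and neutrophil markers (0.00737% to 0.217% against 0) were also higher there, with *Ngp* and *Camp* of the neutrophil list at 0, and vascular markers were lower (0.147% to 1.33% against 1.39% to 1.65%). The markers of rectum itself had a median of 0.0646% in *Scx*-/- and 0.217% in wild-type libraries, with overlapping ranges and *Cdx2* at 0. The part of these cells in the metallothionein values was not tested.

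Liver had the next widest difference for both genes. *Mt2* was 258, 367, and 261 CPM in wild-type liver and 354, 1528, and 2713 CPM in *Scx*-/- liver, a log2 fold change of 2.56 ± 0.60. *Mt1* was 897, 322, and 540 CPM against 808, 2778, and 5473 CPM, a log2 fold change of 2.51 ± 0.93 that did not pass the thresholds. The wild-type and *Scx*-/- ranges overlapped for both, because *Scx*-/- replicate 1 fell among the wild-type libraries. In liver 4.29% of all genes passed the thresholds of the study. With *Xist* as a covariate the log2 fold change of *Mt2* was 1.69. Intestine markers took 1.25% to 1.49% of counts in *Scx*-/- liver and 0.855% to 1.22% in wild-type liver, with *Lct* and *Defa24* at 0, and their part was not tested.

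In kidney and stomach the *Mt2* groups did not overlap. In kidney *Mt2* was 81.7, 55.7, and 78.8 CPM against 130, 332, and 322 CPM, a log2 fold change of 1.74 ± 0.42, where 4.32% of all genes passed the thresholds of the study. In stomach it was 679, 464, and 878 CPM against 906, 2303, and 1616 CPM, a log2 fold change of 1.22 ± 0.24, where 3.31% of all genes passed. The lowest *Scx*-/- library was replicate 1 in both tissues. Kidney markers took 1.82% to 2.05% of counts in *Scx*-/- kidney and 2.37% to 3.32% in wild-type kidney, and pancreatic acinar markers took 0.0872% to 2.36% of counts in *Scx*-/- stomach and 0.0338% to 0.0743% in wild-type stomach. Their part in the *Mt2* values was not tested.

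Muscle, hippocampus, spleen, and adipose gave the other pairs. In muscle *Mt2* was 164, 125, and 46.4 CPM against 417, 189, and 507 CPM, and *Mt1* was 98.7, 218, and 257 CPM against 573, 181, and 576 CPM, with log2 fold changes of 2.23 ± 0.64 and 1.37 ± 0.57. The wild-type muscle library of 164 CPM held 30409 counts in all, so that this level stands for 5 counts of *Mt2* and the 98.7 CPM for 3 counts of *Mt1*. In muscle 4.54% of all genes passed the thresholds of the study. In hippocampus *Mt2* was 633, 341, and 322 CPM against 573, 1163, and 721 CPM, a log2 fold change of 1.11 ± 0.34, where 3.91% of all genes passed. In spleen *Mt1* was 89.9, 338, and 290 CPM against 368, 900, and 683 CPM, a log2 fold change of 1.74 ± 0.55, where 2.99% passed. The spleen groups of *Mt1* and the muscle groups of *Mt2* did not overlap, whereas those of *Mt1* in muscle and of *Mt2* in hippocampus did. *Mt1* in hippocampus also had all *Scx*-/- libraries above the wild-type ones, with means of 2006 ± 343 and 1250 ± 341 CPM (SD), but at a log2 fold change of 0.82 it did not pass.

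In the libraries labelled adipose, *Mt1* was 1434, 2538, and 3363 CPM against 1241, 3899, and 4141 CPM, and *Mt2* was 371, 478, and 808 CPM against 421, 1022, and 1486 CPM. Both pairs overlapped. Their log2 fold changes were 1.01 ± 0.36 and 1.49 ± 0.47, and scaling by library totals in place of TMM factors lowered them to 0.34 and 0.82. The median log2 fold change over all genes in adipose was 1.47 with TMM factors and 1.33 with library totals, while over the 335 genes at 100 CPM or more it was 0.51 and -0.07. In adipose 3.24% of all genes passed the thresholds of the study. Muscle markers were lower in *Scx*-/- adipose libraries, at 0.0315% to 0.0396% against 0.0471% to 0.106% of counts, and their part was not tested.

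Cartilage ran the other way for both metallothioneins. *Mt2* was 992, 161, and 97.9 CPM in wild-type cartilage and 70.3, 151, and 438 CPM in *Scx*-/- cartilage, a log2 fold change of -0.90, and that of *Mt1* was -0.36. The high wild-type library was replicate 1, which is also the library with 13.8 CPM of *Xist*. Neither pair passed the thresholds. *Scx* itself was not lower in *Scx*-/- cartilage, at 9 counts against 8 in wild type. Its means were 12.4 ± 21.5 CPM in *Scx*-/- and 10.6 ± 15.4 CPM in wild-type cartilage (SD, n = 3). All 9 counts were in 1 library, and whether the labels of the cartilage libraries are right was not tested. Pancreatic acinar markers took 0.0424% to 0.0992% of counts in wild-type and 0.237% to 0.296% in *Scx*-/- cartilage, with *Amy2a5* at 0, and their part was not tested. In cortex the log2 fold change of *Mt2* was close to 0, with group means of 739 ± 216 and 725 ± 151 CPM (SD).

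**Figure D2:**
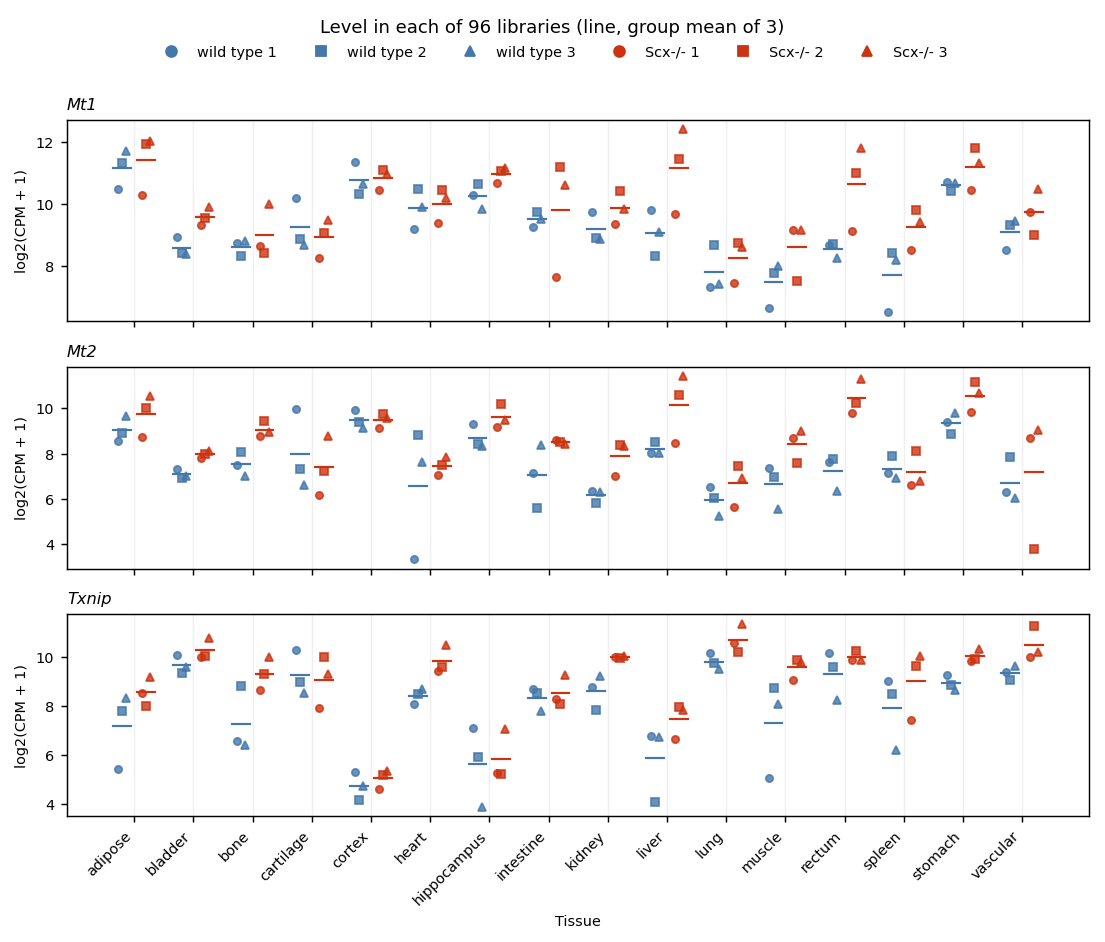
Level of *Mt1*, *Mt2*, and *Txnip* as log2(CPM + 1) in each library of the 16 tissues, in blue for wild type and red for *Scx*-/-, with the marker shape giving the replicate number and the line the mean of 3. In liver and rectum the *Mt1* and *Mt2* points of *Scx*-/- replicates 2 and 3 sit above all wild-type points, and *Scx*-/- replicate 1 is the lowest *Scx*-/- point.

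*Txnip* was higher in *Scx*-/- libraries in 14 of 16 tissues, with a median log2 fold change of 1.10, and passed the thresholds of the study in 9, where the signs in hippocampus and intestine changed with RLE factors or library totals. The gene lies at chr3:96557957-96561883 on the plus strand. Its RefSeq promoter in GRCm38 is shown with the E-box core of the carbohydrate response element, CACGNG, in capitals on either strand, since these elements are the known route from glucose to the gene.
Txnip, chr3:96557707-96558006, plus strand: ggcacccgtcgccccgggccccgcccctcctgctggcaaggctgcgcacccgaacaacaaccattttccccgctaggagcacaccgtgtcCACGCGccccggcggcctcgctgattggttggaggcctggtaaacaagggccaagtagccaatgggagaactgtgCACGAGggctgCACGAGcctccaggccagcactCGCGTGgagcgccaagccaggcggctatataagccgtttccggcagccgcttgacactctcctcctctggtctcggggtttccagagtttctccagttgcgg
The window held 4 matches, where 27.5% of the 32851 promoters held at least 1 and 0.396% at least 4. It also held 1 match to the metal response core and 1 to the glucocorticoid core.

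In kidney *Txnip* was at 437, 230, and 599 CPM in wild-type and 1010, 976, and 1031 CPM in *Scx*-/- libraries, a log2 fold change of 1.16 ± 0.24. In muscle *Txnip* was 32.9, 426, and 266 CPM against 538, 938, and 875 CPM (log2 fold change 1.75 ± 0.52), and the lowest value stands for 1 count. In heart it was 270, 356, and 416 CPM against 680, 776, and 1406 CPM (1.53 ± 0.76 on the log2 scale), where 3.41% of all genes passed the thresholds of the study. The groups did not overlap in these 3 tissues, although the wild-type heart library at 356 CPM held 11244 counts and only 4 of *Txnip*. Kidney markers took 0.00864% to 0.489% of counts in wild-type and 0.00411% to 0.00751% in *Scx*-/- heart, and their part in the heart values of this and the other members was not tested.

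Stomach and lung also had groups that did not overlap. *Txnip* was 615, 461, and 396 CPM against 907, 968, and 1279 CPM in stomach, a log2 fold change of 1.07 ± 0.27. In lung it was 1129, 856, and 733 CPM against 1504, 1161, and 2610 CPM, a log2 fold change of 1.13 ± 0.39, where 2.69% of all genes passed. Lung markers took 8.34% to 9.86% of counts in *Scx*-/- lung and 6.09% to 7.49% in wild-type lung, with *Sftpb* and *Ager* at 0. Vascular markers (0.338% to 0.441% against 0.447% to 0.656%) and neutrophil markers (0.027% to 0.04% against 0.0415% to 0.128%) were lower in *Scx*-/- lung, and the part of these cells was not tested. Lung and bladder were the tissues with the highest *Txnip* level in wild-type mice.

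In the other tissues that passed, the ranges overlapped. In bone *Txnip* was 95.3, 452, and 84.9 CPM against 403, 628, and 1017 CPM (log2 fold change 1.76 ± 0.79), where 3.51% of all genes passed and where *Xist* goes against the replicate numbers. Adipose markers took 0.0113% to 0.0276% of counts in wild-type and 0.0648% to 0.128% in *Scx*-/- bone, with *Plin1* and *Lep* at 0, and kidney markers 0.0468% to 0.132% and 0.00873% to 0.0213%, and their part was not tested. In liver it was 108, 16.3, and 106 CPM against 100.2, 245, and 229 CPM, a log2 fold change of 1.44 ± 0.50. In spleen it was 522, 359, and 73.8 CPM against 171, 798, and 1046 CPM (1.18 ± 0.53). The lowest *Scx*-/- library was again replicate 1 in all 3. In adipose *Txnip* was 42.8, 219, and 323 CPM against 369, 258, and 572 CPM, a log2 fold change of 1.74 ± 0.65 that was 1.04 with library totals. The log2 fold change of *Txnip* was below 0 in cartilage (-0.15) and intestine (-0.30), with overlapping groups. In intestine the sign depended on the scaling, since the value was 0.14 with RLE factors and 0.22 with library totals. The median over all genes there was -1.63 with TMM factors and -1.21 with library totals, and over the 1953 genes at 100 CPM or more -0.33 and 0.14. The mean level of *Txnip* in intestine was 335 ± 98.3 CPM in wild-type and 393 ± 184 CPM in *Scx*-/- libraries (SD, n = 3).

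**Figure D3:**
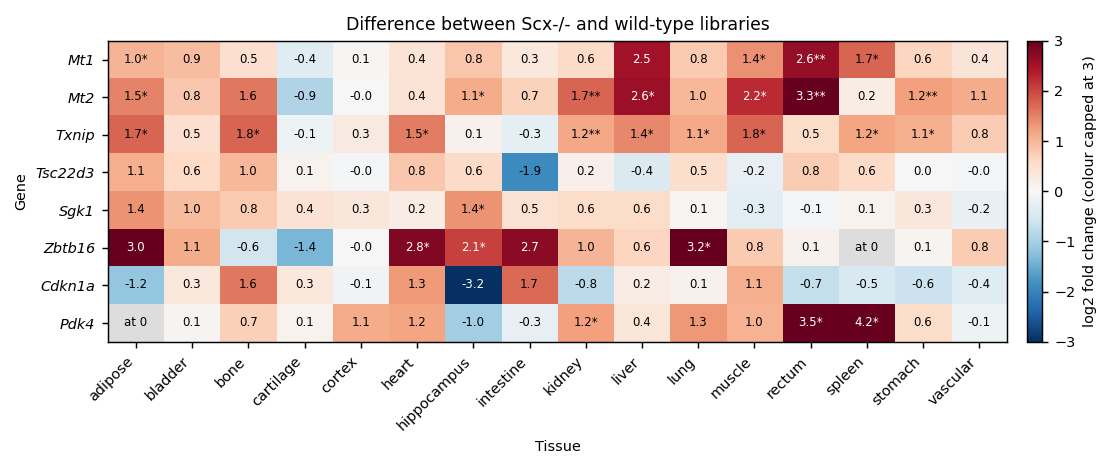
Log2 fold change of *Scx*-/- over wild type for the 8 members with counts in the 16 tissues, in red where *Scx*-/- is higher. A single star marks the thresholds of the study, a double star an adjusted p below 0.05, and grey fields marked at 0 have a genotype with no count, and the stars are densest in the rows of *Mt1*, *Mt2*, and *Txnip*.

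After Benjamini-Hochberg adjustment over all genes of a tissue, edgeR's quasi-likelihood test called 5 of the 128 pairs, all higher in *Scx*-/-, against 0.0591% of all gene and tissue pairs called as higher. They were *Mt1* and *Mt2* in rectum, where 0.441% of genes were called, *Mt2* and *Txnip* in kidney (0.195%), and *Mt2* in stomach (0.0609%). With *Xist* as a covariate 4 pairs were called, namely *Mt2* in rectum, stomach, and liver and *Txnip* in kidney. A filter on low counts left 1 call, *Mt2* in rectum. At 10 CPM or more in either genotype, 23 of 127 pairs had all *Scx*-/- libraries above all wild-type libraries and 0 had them below, against 5.39% and 5.22% of all gene and tissue pairs.

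The replicate number ordered the *Scx*-/- libraries across tissues. *Mt1* was above its group mean in 15 of 16 tissues for *Scx*-/- replicate 3, in 12 for replicate 2, and in 2 for replicate 1. For *Txnip* these counts were 14, 7, and 1, and for *Mt2* 12, 12, and 3. Over the 16 tissues the geometric mean of *Mt1*, on the scale of CPM + 1, was 611 CPM in *Scx*-/- replicate 1, which lay between the wild-type values of 566, 625, and 593 CPM. It was 1138 and 1409 CPM in replicates 2 and 3. *Mt2* was 195, 207, and 165 CPM in the wild-type replicates and 281, 393, and 537 CPM in the *Scx*-/- ones, and *Txnip* was 280, 260.4, and 217 CPM against 362, 520, and 684 CPM. For *Mt2* and *Txnip* all 3 *Scx*-/- numbers lay above all 3 wild-type numbers, with replicate 1 the nearest to wild type. *Scx*-/- replicate 1 was also the only *Scx*-/- number with *Xist* at 100 CPM or more in most tissues (15 of 16, against 2 and 0). Within the *Scx*-/- libraries this order and that of the transcripts of the sex chromosomes cannot be told apart. The wild-type numbers were close to each other for all 3 genes. Where a number stands for a single mouse, the 16 tissues are not separate replicates of the genotype, and a test over 96 libraries then gives p-values that are too small.

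**Figure D4:**
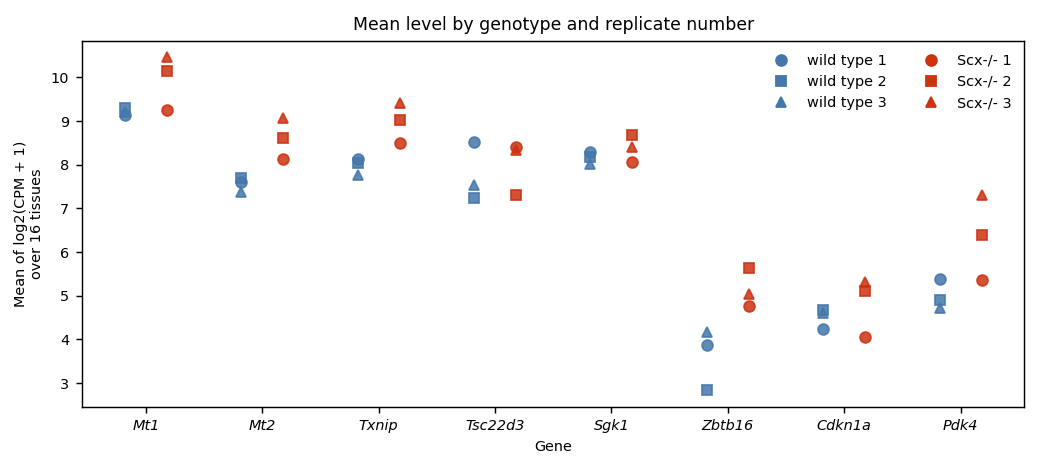
Mean of log2(CPM + 1) over the 16 tissues for the 8 members with counts, by genotype (blue, wild type; red, *Scx*-/-) and replicate number (marker shape), with no error bars. The red points are spread widely for *Mt1*, *Mt2*, *Txnip*, *Pdk4*, and *Cdkn1a*, with *Scx*-/- replicate 3 highest and replicate 1 lowest in each. Those of *Tsc22d3* are also spread widely, but with replicate 1 highest and replicate 2 lowest.

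In a fit over all 96 libraries, the mean of the 16 log2 fold changes was 1.17 ± 0.15 (SE) for *Mt2*, 0.89 ± 0.13 for *Mt1*, and 0.88 ± 0.14 for *Txnip*. They were among the 20 of 13459 genes (0.149%) that were called at an adjusted p below 0.05, and the median of all genes was 0.02. These means restate the contrast on which the members were chosen. With *Xist* as a covariate the means were 1.04, 0.71, and 0.81, and without bone and cartilage 1.29, 1.02, and 0.89. Without replicate 3 of both genotypes they were 0.99, 0.67, and 0.60, and of these *Mt2* alone was still called. Without *Scx*-/- replicate 3 alone they were 0.96, 0.68, and 0.68. The means were 0.42 ± 0.14 for *Sgk1*, 0.20 ± 0.16 for *Tsc22d3*, and -0.08 ± 0.25 for *Cdkn1a*, none of them called.

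*Tsc22d3* encodes GILZ, a leucine zipper protein that carries much of the anti-inflammatory action of glucocorticoids. It lies at chrX:140539528-140600659 on the minus strand, was above 0 in log2 fold change in 11 of 16 tissues with a median of 0.34, and passed the thresholds of the study in 0. Its unadjusted p in edgeR was below 0.05 in 0 of 16 tissues, and DESeq2 also called 0 after adjustment. In lung, its highest tissue, it was 1111, 1006, and 1090 CPM in wild-type and 1132, 1099, and 1696 CPM in *Scx*-/- libraries. In intestine it was 375, 15.7, and 277 CPM against 146, 0, and 75.5 CPM, values that rest on 2 to 145 counts in wild-type and 0 to 8 in *Scx*-/- libraries. Its replicate order differed from that of the metallothioneins, since wild-type replicate 1 was above its group mean in 15 of 16 tissues and replicate 2 of both genotypes was below it in most, in 12 and 13 of 16.

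*Sgk1* encodes a kinase that raises sodium uptake in epithelia and is induced by mineralocorticoids as well as glucocorticoids. It lies at chr10:21882184-21999903 on the plus strand and was higher in *Scx*-/- libraries in 13 of 16 tissues, with a median log2 fold change of 0.38. The signs in lung, spleen, and vascular changed with library totals. *Sgk1* passed in hippocampus only. There it was 101, 173, and 119 CPM against 327, 215, and 384 CPM, a log2 fold change of 1.36 ± 0.56, with no overlap. In kidney the groups also did not overlap, at 1064, 649, and 735 CPM against 1178, 1280.1, and 1423 CPM. Library totals in hippocampus were higher in *Scx*-/-, at 255264 to 511781 counts against 118567 to 184695, and the median log2 fold change over all genes there was 0.42.

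*Zbtb16* encodes PLZF, a zinc finger repressor with strong induction by glucocorticoids, and lies at chr9:48654297-48836222 on the minus strand. It was a low transcript with 729 counts in 34 of 48 wild-type libraries and 1263 counts in 42 of 48 *Scx*-/- libraries. Its log2 fold change was above 0 in 12 of 16 tissues and below 0 in 4, with a median of 0.76, and it passed in 3. The signs in rectum and stomach turned below 0 with RLE factors. In cartilage it was -1.37, with means of 140 ± 175 CPM in wild-type and 53.2 ± 9.16 CPM in *Scx*-/- libraries (SD, n = 3). In lung it was 46.8, 0, and 18.8 CPM against 190, 87.9, and 503 CPM, a log2 fold change of 3.25 ± 1.16. In heart it was 22.7, 0, and 24.9 CPM against 18.3, 288, and 205 CPM (2.77 ± 1.16), and in hippocampus 84.3, 0, and 56.0 CPM against 130, 221, and 141 CPM (2.06 ± 0.91). The lung and hippocampus groups did not overlap and the heart groups did. The wild-type library at 0 was replicate 2 in all 3 tissues, and the lung library at 18.8 CPM holds 1 count. Over the 16 tissues the geometric mean was 13.7, 6.18, and 16.9 CPM in the wild-type numbers and 26.0, 49.0, and 32 CPM in the *Scx*-/- ones, so that the numbers did not overlap. Libraries at 0 pull these means down, among them shallow ones such as wild-type heart replicate 2, with 11244 counts in all.

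*Pdk4* encodes a kinase that shuts down pyruvate dehydrogenase and spares glucose in fasting, and lies at chr6:5483351-5496309 on the minus strand. It was above 0 in log2 fold change in 13 of 16 tissues and passed in 3. In kidney it was 21.7, 46.6, and 81.8 CPM against 136, 70.6, and 169 CPM (log2 fold change 1.24 ± 0.56). In rectum it was 0, 48.1, and 0 CPM against 12.7, 238, and 201 CPM (3.5 ± 1.55), and in spleen 8.56, 0, and 0 CPM against 0, 96.4, and 110 CPM (4.22 ± 1.76). All 3 pairs overlapped, and the wild-type rectum and spleen values rest on 4 counts each in all. In heart *Pdk4* was 409, 88.9, and 511 CPM against 100.5, 726, and 1875 CPM, which did not pass, and the value of 88.9 CPM is 1 count. Over the tissues its geometric mean was 41.0, 28.9, and 25.4 CPM in the wild-type numbers and 40.4, 83.4, and 158 CPM in *Scx*-/- replicates 1, 2, and 3, the same order as for *Mt1*.

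A group at 0 gives no finite mean of log2 fold changes, which is the case for *Pdk4* in wild-type adipose and for *Zbtb16* in *Scx*-/- spleen. For them a fit with 1 common genotype effect was added after the data were seen, with 0.520% of 13459 genes called. It gave 0.69 ± 0.25 for *Pdk4* and 0.86 ± 0.26 for *Zbtb16*, neither called, while *Mt1*, *Mt2*, and *Txnip* gave 0.88, 1.18, and 0.90 and were called.

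*Cdkn1a* encodes the cell cycle inhibitor p21 and lies at chr17:29090976-29100727 on the plus strand. Its log2 fold change was above 0 in 8 of 16 tissues and below 0 in 8, with a median of 0.01, and it passed in 0, with 0 unadjusted p below 0.05 in edgeR and 0 adjusted calls in DESeq2. The largest differences rest on few counts, as in hippocampus, with 21 counts in 1 wild-type library and 0 in the other two. In intestine it was 36.2, 31.4, and 53.2 CPM against 146, 66.6, and 340 CPM, which stand for 8, 2, and 9 counts in the *Scx*-/- libraries.

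**Figure D5:**
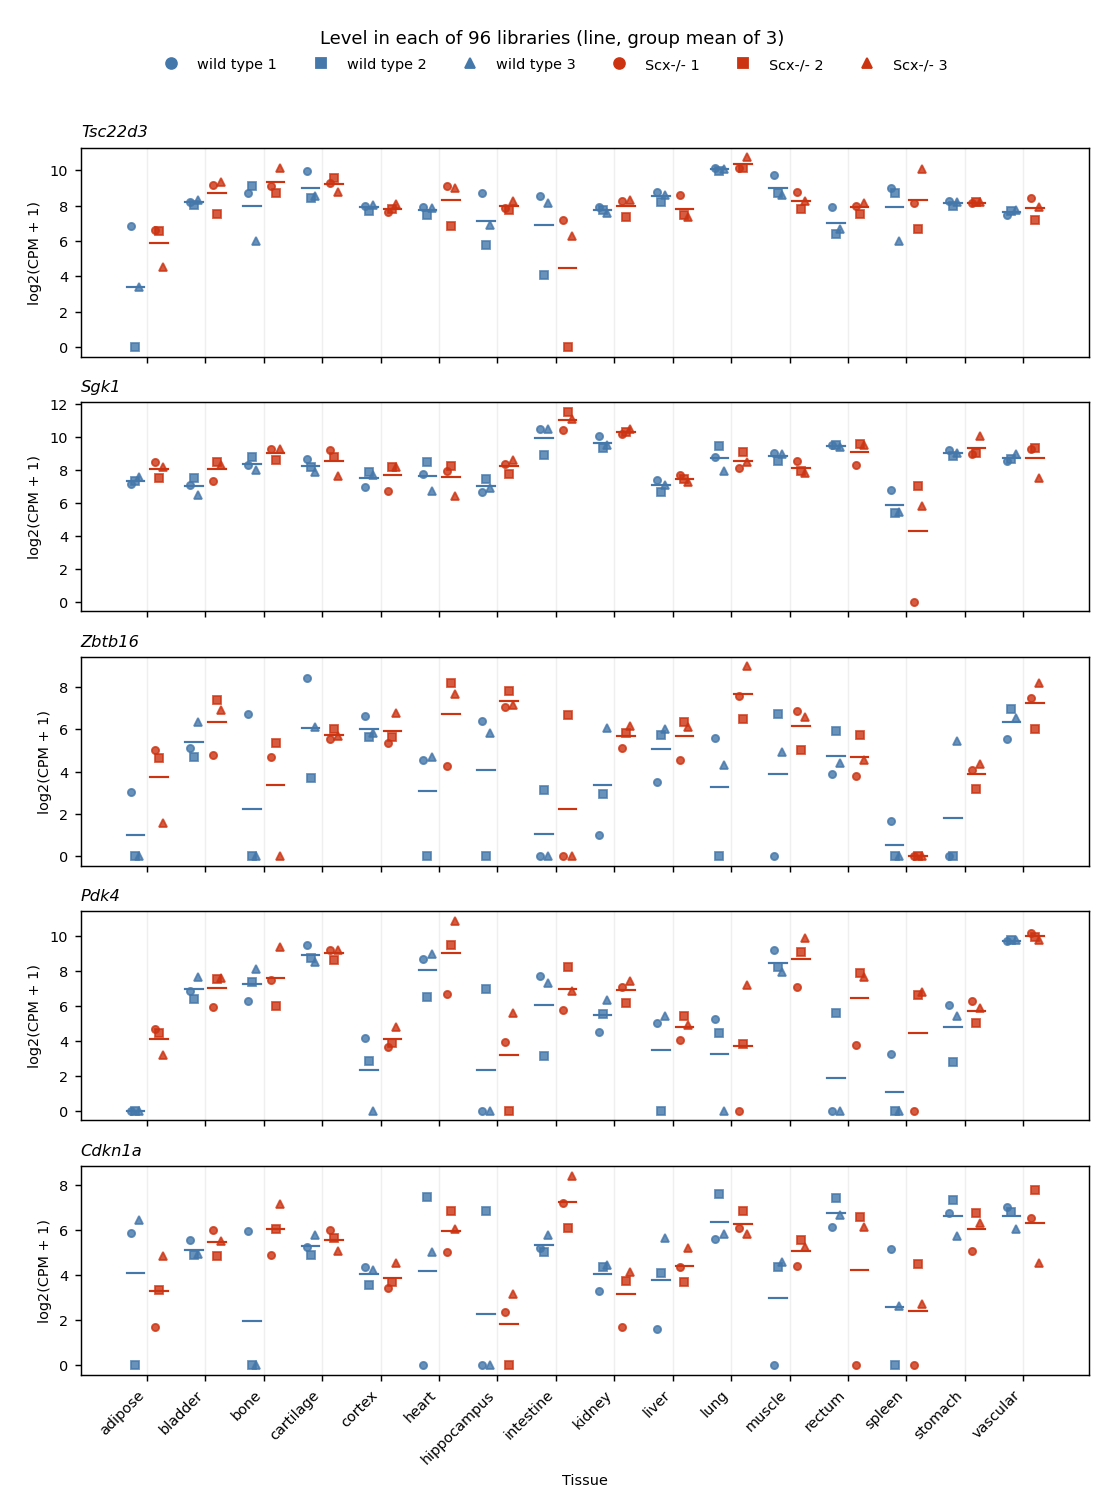
Level of *Tsc22d3*, *Sgk1*, *Zbtb16*, *Pdk4*, and *Cdkn1a* as log2(CPM + 1) in each library, in blue for wild type and red for *Scx*-/-, with the marker shape giving the replicate number and the line the mean of 3. The ranges of the genotypes overlap in most tissues, and many points of *Zbtb16*, *Pdk4*, and *Cdkn1a* lie at 0.

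Variation of the genotype difference among tissues was fitted as an interaction over all 96 libraries, and for the members, chosen on these differences, it is a description. Of the 13459 genes 9 (0.0669%) were called, and of the 8 members 0, with an unadjusted p below 0.05 for 2 of 8 in edgeR's quasi-likelihood test. These were *Mt2* and *Mt1*. Without the vascular and adipose libraries *Mt2* was called, and no other tool was run on the interaction.

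Differences between tissues within a genotype are another contrast than the one that chose the members, but they use the same libraries. Tests are given for wild-type mice, and the *Scx*-/- values, which carry the genotype differences the members were chosen on, are a description. All 8 members differed among the 16 wild-type tissues by edgeR's quasi-likelihood test, as did 67.3% of all genes, and 69.4% of all genes were called in *Scx*-/- libraries. The adjusted p in wild-type libraries ranged from 3.47e-28 for *Pdk4* to 0.0159 for *Cdkn1a*. These fits took the libraries of a genotype as independent, with no term for a mouse that may have given several tissues. Between neighbors in the order of tissue means, the ranges of the 3 libraries overlapped at 15 of 15 steps for *Mt1* and *Mt2* in both genotypes, so the order itself is loose.

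In wild-type mice *Mt1* ran from 2445 ± 968 CPM in adipose (SD, n = 3), 1824 ± 682 in cortex, and 1560 ± 162 in stomach down to 191 ± 82.6 in muscle. *Mt2* ran from 739 ± 216 CPM in cortex to 64.1 ± 26.5 in lung. *Txnip* ran from 906 ± 203 CPM in lung to 27.4 ± 11.1 in cortex, and both brain regions held its lowest levels, so that the tissue order of *Txnip* put cortex last where that of *Mt2* put it first. *Sgk1* was highest in intestine, at 1109 ± 552 CPM, and in kidney, at 816 ± 219 CPM. *Tsc22d3* in wild-type lung, at 1069 ± 55.9 CPM, lay above every library of the next tissue, cartilage, and *Pdk4* in the vascular libraries, at 863 ± 11.1 CPM, likewise.

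Liver, heart, and muscle were each set against the mean of the 15 other tissues. In wild-type mice *Mt2* and *Mt1* in liver did not differ from that mean beyond the test, at 1.03 ± 0.40 and 0.48 ± 0.35 on the log2 scale (edgeR's quasi-likelihood test, adjusted p = 0.0711 and 0.533), where 13.5% of all genes were called. In *Scx*-/- mice the values were 2.66 ± 0.33 and 2.34 ± 0.35, where 17.0% of all genes were called, and they hold the liver difference between genotypes described above. The difference between these contrasts was not tested on its own. *Txnip* was lower in wild-type liver than in the other tissues, at -1.50 ± 0.51 (adjusted p = 0.0292), a call that was lost without any 1 of the 3 replicates (adjusted p from 0.0583 to 0.340) and without the vascular and adipose libraries (0.0533). In *Scx*-/- liver it was at -0.77 ± 0.37, and at -1.59 with library totals.

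*Pdk4* was highest in the vascular libraries of both genotypes, with means of 863 ± 11.1 and 1023 ± 157 CPM (SD), and cartilage, at 508 ± 198 and 527 ± 107 CPM, was near muscle and heart. The cartilage libraries held muscle markers at 9.64% to 11.2% of counts in wild-type and 9.74% to 12.2% in *Scx*-/- mice, against 0.478% to 0.783% and 0.203% to 1.40% for the markers of cartilage, and their part was not tested. In the tissues compared, its level in heart was above the mean of the other tissues by 3.11 ± 0.42 on the log2 scale in *Scx*-/- libraries, where 8.47% of genes were called, and its level in muscle by 3.07 ± 0.40, where 14.6% were called. In wild-type libraries, where 8.36% of genes were called in heart and 8.93% in muscle, its values of 3.32 and 3.21 include adipose at 0 and depend on the prior count. *Zbtb16* was higher in wild-type muscle by 1.92 ± 0.64 (edgeR's quasi-likelihood test, adjusted p = 0.0357), and *Tsc22d3* by 1.21 ± 0.40 (adjusted p = 0.0369). Scaling by library totals ended the calls of *Zbtb16* (adjusted p = 0.236) and *Tsc22d3* (0.216), as did RLE factors. The call of *Zbtb16* was also lost without replicate 2, and that of *Tsc22d3* without replicate 2 or 3 and without the vascular and adipose libraries. In *Scx*-/- muscle the value of *Txnip* was 1.26 ± 0.29, and 0.59 with library totals.

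Genes of the same pathways outside the members were counted by list, for which the pooled shares of all genes at the thresholds were the 1.85% higher and 1.85% lower given above. Of 20 further glucocorticoid targets 18 had counts, and over 271 gene and tissue pairs 15 passed the thresholds of the study as higher and 2 as lower in *Scx*-/- libraries, or 6.27%, with a median log2 fold change of 0.41. In the other lists below the share in both directions was 5% to 6.92%, so this share does not set the list apart. Adjusted calls were *Tat*, the tyrosine breakdown enzyme of liver, at 1041 ± 482 CPM in wild-type and 1732 ± 639 CPM in *Scx*-/- liver (SD, n = 3; log2 fold change 0.94 ± 0.24, edgeR adjusted p = 0.0277, where 0.442% of genes were called), and *Lcn2*, which encodes an iron-trapping lipocalin, in rectum. All 83 *Lcn2* counts in rectum were in *Scx*-/- replicate 1, at 1055 CPM, and the other 5 rectum libraries were at 0, so the call rests on 1 library. The neutrophil and epidermal markers given above were higher in the same tissue. DESeq2 called *Lcn2* but not *Tat* (adjusted p = 0.152). The *Tat* groups in liver overlapped, at 974, 1553, and 596 CPM in wild-type and 1830, 1050, and 2317 CPM in *Scx*-/- libraries. In the mean over 16 tissues *Glul*, which encodes glutamine synthetase, rose by 0.56 ± 0.14 (adjusted p = 0.0474), a call that was lost with 1 common genotype effect (adjusted p = 0.120). That fit called *Tat*, at 1.67 ± 0.40 (adjusted p = 0.0151), and *Igfbp1*, which encodes a liver-secreted binder of insulin-like growth factors, at 1.93 ± 0.49 (adjusted p = 0.0374), both of which have a group at 0 and no finite mean over the tissues.

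Among 8 genes of glucocorticoid reception and steroid handling, which include the receptor gene *Nr3c1*, 0 of 111 pairs were called after adjustment by edgeR or by DESeq2 (10 at an unadjusted p below 0.05 in edgeR), 5 passed the thresholds of the study as higher and 2 as lower, and the median log2 fold change was -0.25. Of 11 other metal handling genes 10 had counts, 5 of 114 pairs passed as higher and 2 as lower, and the median was -0.04. The 1 adjusted call was *Mt4*, the metallothionein of squamous epithelium, at 0 in wild-type rectum and 227 ± 118 CPM in *Scx*-/- rectum (adjusted p = 0.0123), beside the epidermal markers given above. *Slc30a1*, a zinc exporter of this list, was at 0 in all libraries and could not be tested.

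Of 10 relatives of *Txnip* and glucose sensors, 4 of 130 pairs passed as higher and 4 as lower, with a median of 0.07 and 0 adjusted calls by edgeR or by DESeq2 (8 at an unadjusted p below 0.05 in edgeR). Of 13 p53 targets, 9 of 188 pairs passed as higher and 4 as lower, with a median of 0.19 and 0 adjusted calls by edgeR or by DESeq2 (14 at an unadjusted p below 0.05 in edgeR). Of 23 fasting and PPAR targets, 11 of 300 pairs passed as higher and 4 as lower, with a median of 0.24. *Cyp4a14*, a fatty acid hydroxylase and a classic PPARα target, was called in kidney, at 478 ± 233 CPM in wild-type and 1079 ± 159 CPM in *Scx*-/- libraries (log2 fold change 1.07 ± 0.24, edgeR adjusted p = 0.00687), and in liver, at 473 ± 52.5 against 988 ± 440 CPM (1.24 ± 0.28, adjusted p = 0.00519). DESeq2 called it in liver (adjusted p = 0.0354) but not in kidney (0.065).

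Likeness was measured as the correlation of deviations from the mean of each tissue and genotype over the 96 libraries, which share the depth of each library. Among 8391 genes with a count in at least 48 libraries, *Mt2* was the gene most like *Mt1* (Pearson's r = 0.50), followed by *Dctn6* and *Mrpl35*, and *Mt1* was the gene most like *Mt2*, followed by *Zdhhc7* and *Rbm3*. The correlation of *Mt1* and *Mt2* was 0.67 over the 80 libraries of 100000 counts or more, and it was 0.35 within wild-type and 0.62 within *Scx*-/- libraries. *Txnip* was nearest to *Eif2b2* (0.56), *Camk2d*, and *Itm2b*. *Tsc22d3* was nearest to *Ptges3* (0.64), which encodes the p23 cochaperone of steroid receptors, then to *Aldoa* and *Herpud1*. *Sgk1* was nearest to *Spink1*, *Dmbt1*, and *Gm2830*, *Zbtb16* to *Ifnar2*, *Hnrnpr*, and *St6galnac6*, *Cdkn1a* to *Ptgr2*, *Rbm24*, and *Gnai3*, and *Pdk4* to *Oxa1l*, *Sult1a1*, and *Mospd2*, with the highest r of each between 0.47 and 0.60. Between members, *Txnip* and *Pdk4* had r = 0.36, *Sgk1* and *Pdk4* r = 0.45, and *Mt1* and *Tsc22d3* r = -0.29.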

How the data were processed

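Total RNA of 96 mouse tissue samples was sequenced as barcoded 3′-enriched libraries. Per the labels and the paper's methods, the authors mapped reads to mm10 with Bowtie2 and counted them with HTSeq. The deposited table holds raw counts per gene. Tool versions, the annotation, the strand setting, and the use of molecular identifiers were not given in the sources used here. Genes that overlap others could share reads. Groups came from the titles (tissue, genotype, replicate number). Samples with the same number in both genotypes are different mice. Between wild-type and *Scx*-/- libraries of one tissue and number, the correlations of deviations ranged from -0.14 to 0.03 over 48 pairs. All 3 exceeded 0.1 in 0 of 16 tissues. Between tissues of one genotype and number, which the transcripts of the sex chromosomes mostly follow, the median correlations were also only 0.012 to 0.016. This measure therefore cannot tell whether the numbers pair libraries.

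CPM used library totals. Each tissue was fitted over all its genes with a count by edgeR 4.0.16 (R 4.3.3; TMM factors, estimateDisp, robust quasi-likelihood test), with DESeq2 1.42.0 as an alternative. Fits over all libraries used genes kept by filterByExpr and glmQLFit with its own dispersion (legacy = FALSE), because estimateDisp over 96 libraries was slow. Errors of fold changes are the fold change over the root of F. P-values were adjusted by Benjamini-Hochberg and measure the spread between libraries. The scripts were tested on simulated data. Pathway genes where called and the 3 genes most like each member are given by name, mostly without values per library. Values per library are printed for member and tissue pairs at the thresholds of the study with a group mean of 10 CPM or more. A few other pairs were added after their values were seen. The members and the gene lists were chosen with earlier results of these data known. The *Xist* covariate, the fits without bone and cartilage, and the common genotype effect were chosen after seeing the data. Sequences are from RefSeq tables, in which 8 of the 10 members have promoters. Motifs were searched on both strands.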

Additional observations from a re-analysis of the deposited data

How the results depend on the processing

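The 27 member and tissue pairs at the thresholds of the study, and the mean differences of *Mt1*, *Mt2*, *Txnip*, and *Sgk1*, kept their direction under the alternatives run, while those of *Tsc22d3* and *Cdkn1a*, neither called, changed sign. The alternatives were RLE factors, library totals, filterByExpr, thinning to the smallest total, DESeq2, the *Xist* level as a covariate, and leaving out each library. Of 5 adjusted calls, filterByExpr left 1, and leaving out a replicate gave 2 (without wild-type replicate 2) to 8 (without *Scx*-/- replicate 1). Pairs at the thresholds of the study ranged from 15 to 27 when a replicate was left out, with 15 without *Scx*-/- replicate 3. Leaving out replicates gave 1 to 4 called members in the mean over 16 tissues, 0 to 1 in the interaction, and 28 to 46 pairs with all *Scx*-/- libraries above wild type, against 23, where fewer libraries make non-overlap easier and the share over all genes was not computed. The interaction had 1 called member without the vascular and adipose libraries. The number of members called in liver against the other wild-type tissues was 3 with RLE factors against 1, and 0 to 1 without a replicate. In *Scx*-/- mice it was 4 with library totals against 2 in liver, 1 with library totals against 3 in muscle, and 4 without the vascular and adipose libraries against 2 in heart. Leaving out a replicate gave 1 to 3 members in *Scx*-/- heart and 1 to 4 in wild-type muscle. The cause of these shifts was not tested. The correlation of *Mt1* and *Mt2* was 0.668 without libraries under 100000 counts, against 0.501.

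With the replicate number as a block, which does not pair mice, 4 of the pairs were called after adjustment and 20 passed the thresholds of the study, the mean over 16 tissues kept 3 called members, and the interaction had 0. A level of 1 count is worth 88.9 CPM in the shallowest library, so low members cannot be resolved there.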
